A study of Homo sapiens with 18 samples.

Results

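The 5 genes of arginine and polyamine metabolism described here in THP-1 cells are ASS1, ASL, ARG2, ODC1 and SRM, 5 of the 19784 genes listed. They were selected on their measured RNA levels over all 6 groups of these data and then taken by name, so their own levels and changes are given as a description, with no test. THP-1, an established human line of monocytic leukaemia, carries MLL-AF9, and its poly(A) RNA was sequenced. The study varied PHF8, a histone demethylase, in the context of the type I interferon response of this leukaemia. The first experiment held the parental line (wt), a derivative with PHF8 and a derivative with the F279S form of PHF8, 4 libraries each. The second held 3 derivatives on day 3, 2 libraries each: ERAA (genotype PHF8AA), ERDD (genotype PHF8DD) and ERPHF8 (genotype PHF8). The labels give 4-OHT (4-hydroxytamoxifen, 100 nM) as the treatment of ERAA and ERDD and no treatment for ERPHF8, so the form carried and the treatment cannot be told apart in a comparison with ERPHF8. All 18 libraries come from 1 cell line, no parental line stands beside the ER lines, and nothing says that replicates were separate cultures, so p-values measure only the spread between these libraries. What AA, DD and ER abbreviate is left unsaid in the labels.

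Arginine is made from citrulline by a pair of cytosolic enzymes: ASS1 joins citrulline to aspartate and ASL splits the product into arginine and fumarate. ARG2, the mitochondrial arginase, cuts arginine into ornithine and urea. ODC1 turns ornithine into putrescine, the first and rate-limiting step of polyamine synthesis, and SRM adds an aminopropyl group to make spermidine. ASS1 is often silenced in tumours, which then depend on arginine from outside, and ODC1 and SRM are textbook targets of MYC, which binds the E-box CACGTG.

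In hg38 coordinates as deposited, ASS1 lies on chromosome 9 (130444929 to 130501274, plus strand), ASL on chromosome 7 (66075798 to 66093558, plus), ARG2 on chromosome 14 (67619798 to 67651720, plus), ODC1 on chromosome 2 (10439968 to 10448504, minus) and SRM on chromosome 1 (11054584 to 11060024, minus). All 5 spans equal those of GENCODE release 29. ASS1, ODC1 and SRM overlap no other listed gene. ASL shares 5.80 kb, 32.6% of its span, with AC068533.7, and ARG2 shares 4.65 kb, 14.6% of its span, with VTI1B, which lies on the opposite strand. The strand setting of the counting is unknown, so reads from the shared stretches may count for both genes. ASS1 also has 11 processed copies in GENCODE release 29 that are 88.1 to 93.9% identical to its transcripts. None of the copies of ASS1, ASL or SRM is listed in the tables (0 rows), and the handling of reads that fit several places is unknown.

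The promoters that hold the E-box letters are printed because ASS1 shares them with both polyamine genes while its level followed another order across the ER lines. RefSeq (GRCh38.p14) gives 7 promoter windows for the 5 genes, each from 250 bases before to 50 after a start. One of the pair of ASS1 windows (chr9:130444711-130445010, plus strand), one of the pair of ODC1 windows (chr2:10447963-10448262, minus strand) and the SRM window (chr1:11059969-11060268, minus strand) hold CACGTG, shown in capitals.
ASS1: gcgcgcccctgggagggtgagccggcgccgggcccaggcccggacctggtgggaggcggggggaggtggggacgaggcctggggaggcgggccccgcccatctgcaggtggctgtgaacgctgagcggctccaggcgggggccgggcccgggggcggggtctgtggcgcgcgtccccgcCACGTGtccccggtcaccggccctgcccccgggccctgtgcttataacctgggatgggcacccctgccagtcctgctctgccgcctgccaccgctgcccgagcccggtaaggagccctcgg
ODC1: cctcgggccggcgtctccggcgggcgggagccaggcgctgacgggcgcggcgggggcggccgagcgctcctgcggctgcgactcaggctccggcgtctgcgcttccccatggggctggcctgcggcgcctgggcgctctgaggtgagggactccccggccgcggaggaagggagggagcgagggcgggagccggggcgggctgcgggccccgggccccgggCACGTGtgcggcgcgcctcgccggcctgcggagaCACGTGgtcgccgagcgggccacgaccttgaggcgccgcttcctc
SRM: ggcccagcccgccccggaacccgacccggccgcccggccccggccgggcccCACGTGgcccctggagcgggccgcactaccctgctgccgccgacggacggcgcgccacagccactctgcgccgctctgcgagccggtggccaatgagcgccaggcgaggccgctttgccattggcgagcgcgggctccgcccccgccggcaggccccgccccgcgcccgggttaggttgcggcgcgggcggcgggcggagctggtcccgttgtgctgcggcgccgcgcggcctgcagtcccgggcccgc
The E-box of ASS1 begins 71 bases before the start that its window is set on, and that of SRM 199 bases before its own. ODC1 has 2, which begin 29 bases before and 5 bases after the start of the printed window. That ODC1 start lies 492 bases inside the deposited gene, and the start of the other ODC1 window lies 177 bases inside it. CACGTG reads the same on both strands and was in 7.26% of 35116 promoter windows of the same length. The other ODC1 window (chr2:10448278-10448577), the other ASS1 window (chr9:130444457-130444756), the ASL window (chr7:66075569-66075868) and the ARG2 window (chr14:67619670-67619969) hold 0 copies. GGGCGG, the core of the GC box, was searched on both strands and occurs in all 7 windows, with 2 to 6 copies each, against 45.0% of all windows. ACGTG, which overlaps CACGTG, was searched on both strands as well, and outside the E-boxes it occurs only in the ARG2 window, once, against 21.4% of all windows. TGATGCAA, the composite site bound by ATF4 with C/EBP factors, was searched on both strands, is in 0 of the 7 windows and in 0.866% of all windows. These matches are letters in a window, not sites shown to be bound.

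Library totals were 18.2 to 51.5 M reads, and values are CPM, the reads of a gene scaled by the total reads of its library. PHF8 RNA was 45.5 to 54.0 CPM in wt, 1899.7 to 2096 in PHF8 and 5001 to 5781 in F279S, and 1995 and 2305 in ERAA, 1098 and 1119 in ERDD and 1900.0 and 1912 in ERPHF8. All 12 monocytic markers averaged at least 1 CPM in every group, while 0 of the 4 T cell markers in the tables and 0 of the 5 erythroid markers did. Depending on the group, 3 to 4 of the 5 B cell markers and 2 to 4 of the 5 fibroblast markers reached that level. Of the 5 epithelial and the 5 hepatocyte markers, 0 to 1 reached it. The 5 B cell markers summed to 9.41 to 19.5 CPM per library in wt, 9.10 to 19.3 in F279S and 20.7 to 26.6 in PHF8, and to 13.3 to 13.6 in ERAA, 12.3 to 12.9 in ERPHF8 and 22.9 to 23.3 in ERDD, so they differed between some of the lines compared below. The 5 fibroblast markers summed to 3.09 to 6.45 CPM in wt, 3.81 to 37.6 in F279S, 5.06 to 34.7 in PHF8 and 7.62 to 9.75 in the ER lines. The part of these cell type markers in the results was not tested. In the first experiment, libraries 1 and 2 of each line stood apart from libraries 3 and 4. The labels name no batch for this, so changes of that experiment are given with their values within each library pair.

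ASS1 RNA, for the enzyme that commits citrulline to arginine, was far higher in ERAA than in any other line. It stood at 445 and 499.7 CPM in the ERAA libraries, at 122 and 129.6 in ERPHF8 and at 50.9 and 54.1 in ERDD. None of these groups overlapped, though the share of all genes that separate like this was not counted. The parental libraries held 81.6, 75.1, 55.5 and 60.8 CPM, the F279S libraries 86.7, 92.1, 54.6 and 59.6, and the PHF8 libraries 68.9, 68.4, 49.1 and 47.6. These 3 lines overlapped each other, and the ERDD values lay inside the range of the PHF8 libraries. By group mean the order was ERAA (473 ± 38.4 CPM, SD, n = 2), ERPHF8 (126 ± 5.00, n = 2), F279S (73.3 ± 18.9, n = 4), wt (68.3 ± 12.1, n = 4), PHF8 (58.5 ± 11.7, n = 4) and ERDD (52.5 ± 2.29, n = 2). From F279S downward, the ranges of neighbours in this order overlapped. Between libraries of the same number, PHF8 lay below wt and below F279S in 4 of 4 pairings. The labels do not pair libraries by number, and the share of all genes with such an order was not counted. The 16 libraries outside ERAA spanned 47.6 to 129.6 CPM, a factor of 2.72. The 2 experiments were not tested against each other.

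**Figure D1:**
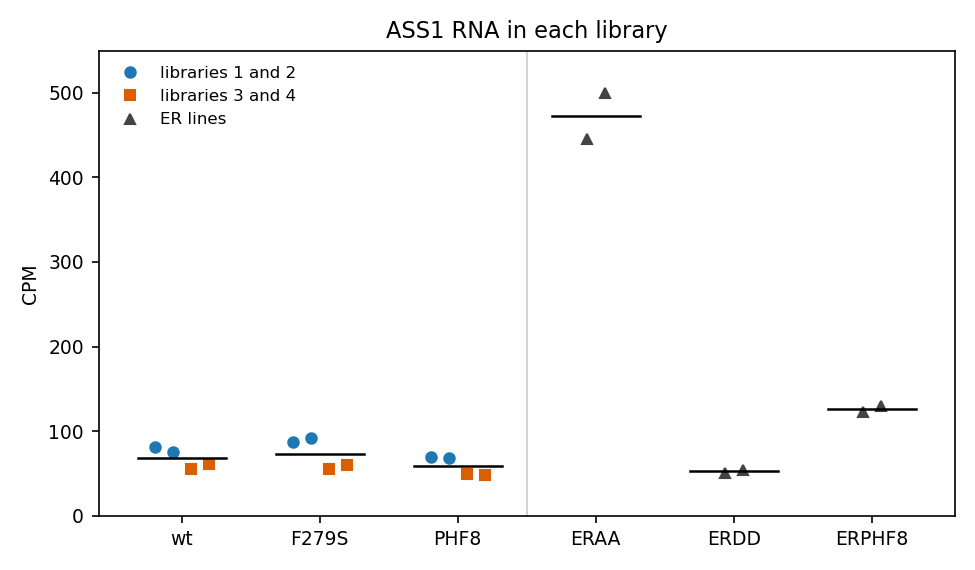
ASS1 RNA in CPM (vertical axis, linear from 0) in each of the 18 libraries by line (horizontal axis); circles are libraries 1 and 2 and squares libraries 3 and 4 of the first experiment, triangles are the ER lines, and horizontal lines are group means. Both ERAA libraries lie at 445 CPM or above, and the other 16 lie at 129.6 CPM or below.

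On the log2(CPM + 0.5) scale used for all changes, ASS1 was -3.16 ± 0.06 (SE) in ERDD against ERAA, where the ERDD mean was 0.111 of the ERAA mean. It was -1.90 ± 0.06 in ERPHF8 against ERAA and -1.25 ± 0.06 in ERDD against ERPHF8. Of 13831 genes fitted, 4 had a lower log2 value than ASS1 in ERDD against ERAA, where ASS1 stood at rank 5 from the bottom, and in ERPHF8 against ERAA ASS1 stood at rank 1 from the bottom. These comparisons share libraries, so their values are not independent of one another.

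In the first experiment, ASS1 was -0.23 ± 0.20 in PHF8 against wt, 0.08 ± 0.20 in F279S against wt and -0.31 ± 0.20 in PHF8 against F279S. Within libraries 1 and 2 alone PHF8 against wt was -0.19 ± 0.06, and within libraries 3 and 4 alone -0.26 ± 0.07. F279S against wt did not hold within the pairs, at 0.19 ± 0.06 in libraries 1 and 2 and -0.03 ± 0.07 in libraries 3 and 4. PHF8 against F279S was -0.38 ± 0.06 and -0.24 ± 0.07 in the same pairs. A fit that blocks on the replicate number gave -0.23 ± 0.06 for PHF8 against wt, 0.08 ± 0.06 for F279S against wt and -0.31 ± 0.06 for PHF8 against F279S. In every line, ASS1 was lower in libraries 3 and 4 than in libraries 1 and 2, by -0.43 ± 0.07 in wt, -0.64 ± 0.07 in F279S and -0.50 ± 0.07 in PHF8.

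ASL RNA, for the second step, varied little. It was 46.9 and 45.9 CPM in ERAA, 41.5 and 43.2 in ERDD and 35.0 and 37.1 in ERPHF8. In the first experiment it was 49.8, 45.4, 55.4 and 51.5 CPM in wt, 43.7, 43.3, 50.7 and 51.2 in F279S and 46.2, 49.9, 57.4 and 52.6 in PHF8. The 3 lines of the first experiment overlapped each other. ASL was -0.13 ± 0.05 in ERDD against ERAA, -0.36 ± 0.05 in ERPHF8 against ERAA and 0.23 ± 0.05 in ERDD against ERPHF8. PHF8 against wt gave 0.03 ± 0.09, with 0.01 ± 0.07 in libraries 1 and 2 and 0.04 ± 0.07 in libraries 3 and 4. F279S against wt gave -0.10 ± 0.09, with -0.13 ± 0.07 and -0.07 ± 0.07 in the pairs, and PHF8 against F279S 0.12 ± 0.09, with 0.14 ± 0.07 and 0.11 ± 0.07. AC068533.7, which may share reads with ASL, ran from 26.7 to 40.2 CPM over the 18 libraries. Its part in the ASL values, and in the ratios to ASL below, was not tested.

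The pair of enzymes that make arginine thus did not keep a fixed proportion. The ratio of ASS1 to ASL reads was 9.50 and 10.9 in the ERAA libraries, 3.49 and 3.50 in ERPHF8 and 1.23 and 1.25 in ERDD. In the 12 libraries of the first experiment it ran from 0.855 to 2.13. Per kilobase of merged exons, the scale on which genes can be set side by side, ASS1 and ASL averaged 155 and 14.5 CPM per kb in ERAA, 41.3 and 11.3 in ERPHF8, 17.2 and 13.3 in ERDD and 22.4 and 15.8 in wt.

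ARG2 RNA, for the arginase that makes ornithine, differed far less between the ER lines than ASS1 did. It was 33.6 and 34.3 CPM in ERAA, 35.3 and 35.7 in ERDD and 33.2 and 30.7 in ERPHF8. These groups did not overlap either, like those of ASS1, ASL, ODC1 and SRM. With 2 libraries per line, the share of all genes that separate in this way was not counted. The lack of overlap therefore sets none of these genes apart. The largest of the 3 ER changes was 0.15 ± 0.06, in ERDD against ERPHF8. In the first experiment it was 58.0, 63.6, 41.5 and 45.9 CPM in wt, 57.5, 57.2, 43.2 and 46.8 in F279S and 44.2, 40.6, 41.9 and 42.9 in PHF8. The PHF8 libraries lay together near the lower libraries of the other 2 lines. PHF8 against wt was -0.28 ± 0.13, made up of -0.52 ± 0.07 in libraries 1 and 2 and -0.04 ± 0.07 in libraries 3 and 4. PHF8 against F279S was -0.26 ± 0.13, with -0.43 ± 0.07 and -0.08 ± 0.07 in the same pairs, and F279S against wt was -0.02 ± 0.13, with -0.08 ± 0.07 and 0.04 ± 0.07. The blocked fit gave -0.28 ± 0.09 for PHF8 against wt and -0.26 ± 0.09 for PHF8 against F279S. VTI1B, with which ARG2 shares reads, ran from 67.6 to 113 CPM over the 18 libraries, and its part in these values was not tested.

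ODC1 RNA, for the entry step of polyamine synthesis, ran opposite to ASS1 across the ER lines. It was 210.2 and 226 CPM in ERAA, 266 and 257 in ERPHF8 and 299 and 306 in ERDD. ODC1 was 0.47 ± 0.05 in ERDD against ERAA, 0.26 ± 0.05 in ERPHF8 against ERAA and 0.21 ± 0.05 in ERDD against ERPHF8. In wt it was 349, 343, 157 and 176 CPM and in F279S 316, 340.4, 173 and 187. In the PHF8 line it was 279.4, 283, 284 and 311. Libraries 3 and 4 thus held 0.482 of the level of libraries 1 and 2 in wt and 0.549 in F279S, and 1.06 of it in PHF8.

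Pooled over the 4 libraries, ODC1 was 0.27 ± 0.29 in PHF8 against wt, 0.25 ± 0.29 in PHF8 against F279S and 0.02 ± 0.29 in F279S against wt. The pooled value of PHF8 against wt did not hold within the pairs: it was -0.30 ± 0.05 in libraries 1 and 2, where PHF8 lay below wt, and 0.83 ± 0.08 in libraries 3 and 4, where PHF8 lay above it. Against F279S the same 2 values were -0.22 ± 0.05 and 0.72 ± 0.08, and for F279S against wt they were -0.08 ± 0.05 and 0.11 ± 0.08.

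SRM RNA, for spermidine synthase, had the same order as ODC1 across the ER lines with a wider spacing. It was 63.0 and 71.1 CPM in ERAA, 87.9 and 90.0 in ERPHF8 and 121 and 126 in ERDD. SRM was 0.87 ± 0.06 in ERDD against ERAA, where the ERDD mean was 1.84 times the ERAA mean, 0.41 ± 0.06 in ERPHF8 against ERAA and 0.47 ± 0.06 in ERDD against ERPHF8. In the first experiment it was 176, 174, 86.1 and 90.0 CPM in wt, 150.3, 169.6, 85.2 and 94.4 in F279S and 128, 141, 99.5 and 102 in PHF8. Libraries 3 and 4 were lower in every line, by -0.98 ± 0.07 in wt, -0.83 ± 0.07 in F279S and -0.41 ± 0.07 in PHF8. PHF8 against wt was -0.09 ± 0.28 when pooled, -0.38 ± 0.06 in libraries 1 and 2 and 0.19 ± 0.06 in libraries 3 and 4, so it too did not hold within the pairs. PHF8 against F279S was -0.04 ± 0.28, with -0.25 ± 0.06 and 0.17 ± 0.06 in the pairs, and F279S against wt was -0.05 ± 0.28, with -0.13 ± 0.06 and 0.03 ± 0.06.

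Per kilobase of merged exons, ODC1 averaged 73.4 CPM per kb in ERAA, 88.1 in ERPHF8 and 102 in ERDD, and SRM 35.3, 46.9 and 64.9. On that scale ASS1 stood above both of them in ERAA and below both in the other 5 groups.

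**Figure D2:**
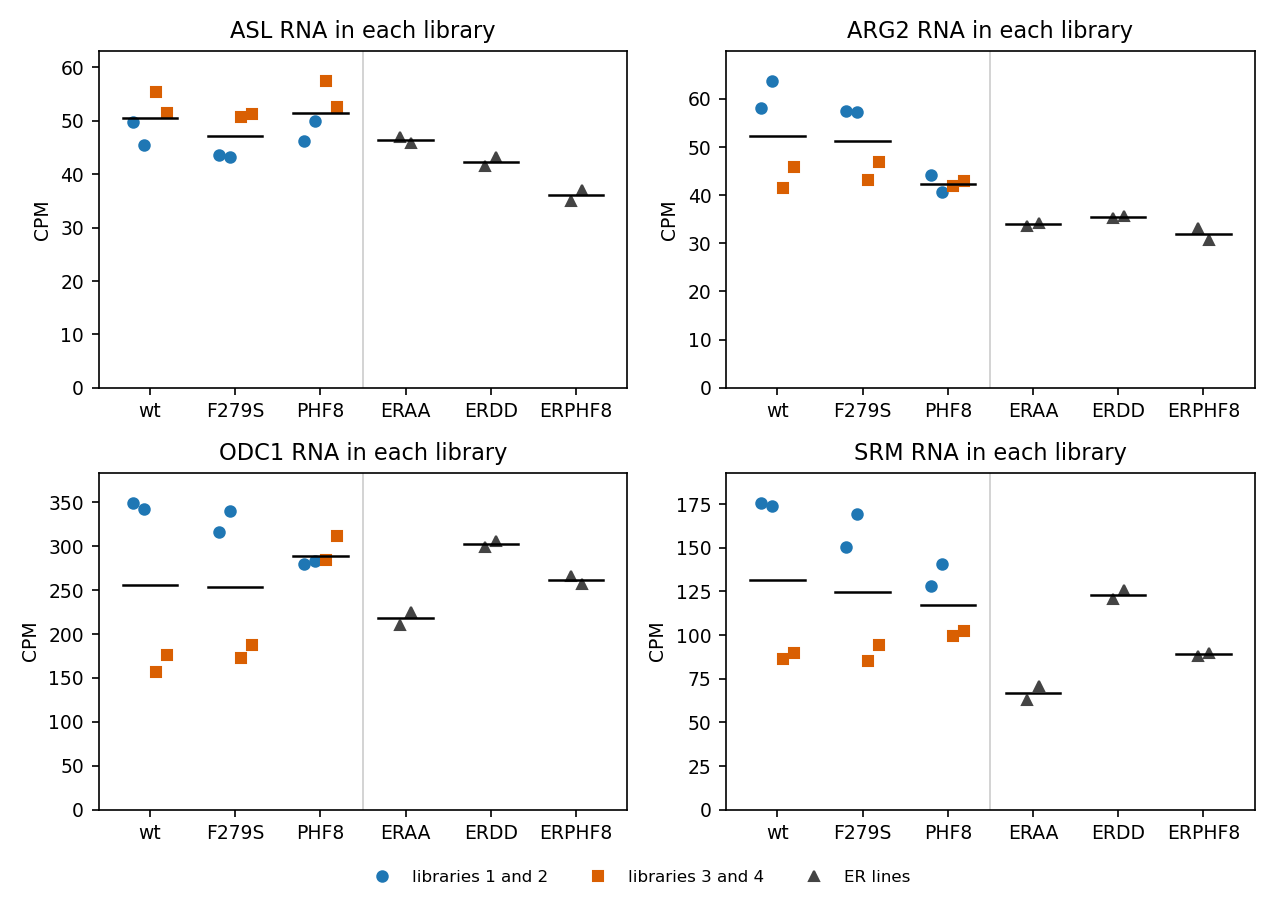
RNA of ASL, ARG2, ODC1 and SRM in CPM (vertical axes, linear from 0) in each library by line; circles are libraries 1 and 2, squares libraries 3 and 4, triangles the ER lines, and horizontal lines group means. ODC1 splits by library pair in wt (349 and 343 against 157 and 176 CPM) and F279S, while the 4 PHF8 libraries lie between 279.4 and 311 CPM.

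**Figure D3:**
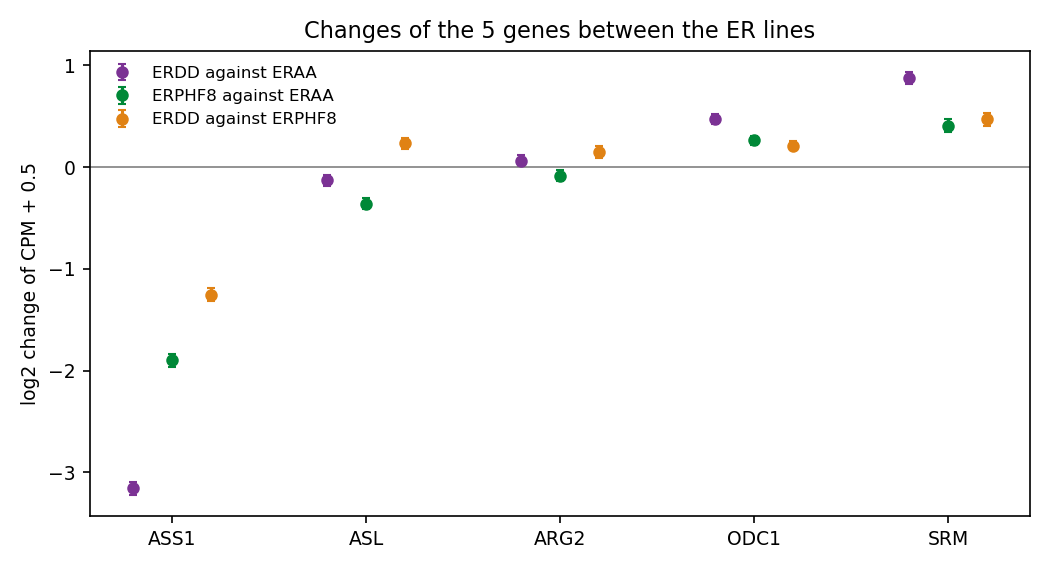
Change of each of the 5 genes (log2 of CPM + 0.5, vertical axis, linear; points are fitted values and bars the SE, n = 2 libraries per line) in the 3 comparisons of the ER lines. ASS1 lies between -3.16 and -1.25, ODC1 and SRM lie above 0 in all 3, and ASL and ARG2 lie between -0.36 and 0.23.

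All 5 genes passed the filter on low values (at least 1 CPM in as many libraries as the smallest group) in both experiments. No p or call is given for them. For other genes of the pathway, a gene was called with limma at an adjusted p below 0.05 over all genes fitted, 13683 in the first experiment and 13831 in the ER lines, and each count stands beside the share of all genes called in the same comparison.

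The wider pathway was taken as 8 lists with 81 gene names besides the 5 genes, of which 77 are in the tables; the lists were chosen with earlier results of these data known. Several genes of the urea cycle in liver were near the floor. ARG1, the cytosolic arginase, was 0.218 to 0.781 CPM over the 18 libraries, NOS2, the inducible nitric oxide synthase, 0.145 to 0.915, and OTC, which makes citrulline in mitochondria, 0 to 0.144, where 3 reads are worth 0.0582 to 0.164 CPM. CPS1, the mitochondrial entry step of the urea cycle, was 0.192 to 0.660 CPM in wt and F279S, 0.914 to 2.08 in PHF8 and 2.92 to 4.68 in the ER lines. MTAP, which recycles the by-product of spermidine synthesis, was 0 to 0.152 CPM.

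In ERDD against ERAA, 44 of the 61 pathway genes tested were called by limma, 25 higher and 19 lower, which is 72.1% beside 68.1% of all genes (34.8% higher and 33.3% lower). The median change of these genes was 0.05, beside -0.00 for all genes. Against that background, where most genes were called, the counts of single lists are a description and single out none of them. All 4 of the called genes of arginine synthesis and the mitochondrial urea cycle (of 5 tested) were higher, among them the fumarase FH (0.62 ± 0.04, adjusted p = 8.2e-06) and the aspartate-glutamate carrier SLC25A12 (0.52 ± 0.04, adjusted p = 1.1e-05). CPS1 in that list was -0.18 ± 0.14 (adjusted p = 0.27). The list's median was 0.43.

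Of 10 genes of arginine uptake and sensing, 6 fell and 1 rose in ERDD against ERAA, 70.0% of the list beside 68.1% of all genes, with a median of -0.34. SLC3A2, the heavy chain of several amino acid exchangers, was 323 and 339.6 CPM in ERAA, 172 and 175 in ERDD and 232 and 228 in ERPHF8. It fell by 0.93 ± 0.04 on the log2 scale in ERDD against ERAA (adjusted p = 9.7e-07 by limma) and by 0.53 ± 0.04 in ERPHF8 against ERAA (adjusted p = 5.2e-05). SLC7A1, the main cationic amino acid importer, was 274 and 243 CPM in ERAA, 175 and 173 in ERDD and 256 and 263 in ERPHF8. It fell by 0.57 ± 0.06 in ERDD against ERAA (adjusted p = 6.1e-05), while ERPHF8 against ERAA gave 0.01 ± 0.06 (adjusted p = 0.93). SLC7A3, a related importer, was low throughout and fell by 1.29 ± 0.11 in ERDD against ERAA (adjusted p = 2.7e-05).

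Of 16 genes that use arginine, 9 rose and 5 fell in ERDD against ERAA (87.5%, beside 68.1% of all genes; median 0.31). The arginine methyltransferases PRMT1 (0.75 ± 0.05, adjusted p = 7.0e-06) and PRMT5 (0.73 ± 0.04, adjusted p = 4.6e-06) rose. CKB, the brain-type creatine kinase, fell by 1.24 ± 0.06 (adjusted p = 1.1e-06), and DDAH2, of the family that breaks down methylarginines, by 1.02 ± 0.08 (adjusted p = 1.3e-05). Of 6 genes of ornithine and proline, 4 rose and 1 fell (83.3%, beside 68.1%; median 0.38). OAT, which exchanges ornithine with proline and glutamate, rose by 0.56 ± 0.04 (adjusted p = 1.2e-05), and ALDH18A1, the first step of proline synthesis, by 0.42 ± 0.04 (adjusted p = 4.1e-05). PYCR1, a mitochondrial enzyme of the last step, was the exception: it was 104 and 110.3 CPM in ERAA and 50.1 and 51.6 in ERDD, and fell by 1.06 ± 0.05 (adjusted p = 9.9e-07).

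Of 8 genes of polyamine synthesis and its control besides ODC1 and SRM, 3 rose and 0 fell in ERDD against ERAA by limma (37.5%, beside 68.1% of all genes), and their median was 0.06. AMD1, which makes the aminopropyl donor, rose by 0.24 ± 0.04 (adjusted p = 0.0011), SMS, the spermine synthase, by 0.26 ± 0.05 (adjusted p = 0.0031) and MAT2B, a regulatory subunit of methionine adenosyltransferase, by 0.12 ± 0.04 (adjusted p = 0.024). OAZ1, the antizyme that sends ODC1 protein to the proteasome, was -0.13 ± 0.06 (adjusted p = 0.076). Of 8 genes of breakdown and transport, 5 fell and 0 rose (62.5%, beside 68.1%), with a median of -0.57. SAT1, the acetyltransferase that starts polyamine breakdown, was 42.0 and 46.4 CPM in ERAA, 26.9 and 26.0 in ERDD and 28.4 and 25.0 in ERPHF8, and fell by 0.73 ± 0.08 (adjusted p = 7.5e-05). The spermine oxidase SMOX fell by 1.08 ± 0.13 (adjusted p = 0.00016), from a mean of 3.64 to 1.46 CPM.

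Methylthioadenosine salvage follows spermidine synthesis, and 3 of its 4 tested genes were called, beside 68.1% of all genes. The 2 that rose were ADI1 (0.82 ± 0.04, adjusted p = 1.3e-06) and ENOPH1 (0.80 ± 0.04, adjusted p = 2.6e-06). MRI1, an isomerase of the same route, fell by 0.50 ± 0.06 (adjusted p = 0.00017). In the hypusine list, in which spermidine is used to modify the translation factor eIF5A, 2 of 4 rose and 1 fell, beside 68.1% of all genes called. EIF5A was 161 and 173 CPM in ERAA and 301 and 306 in ERDD, and rose by 0.86 ± 0.05 (adjusted p = 2.3e-06). DOHH, the second enzyme of the modification, rose by 0.79 ± 0.09 (adjusted p = 1.0e-04), and DHPS, the first, fell by 0.18 ± 0.05 (adjusted p = 0.017).

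**Figure D4:**
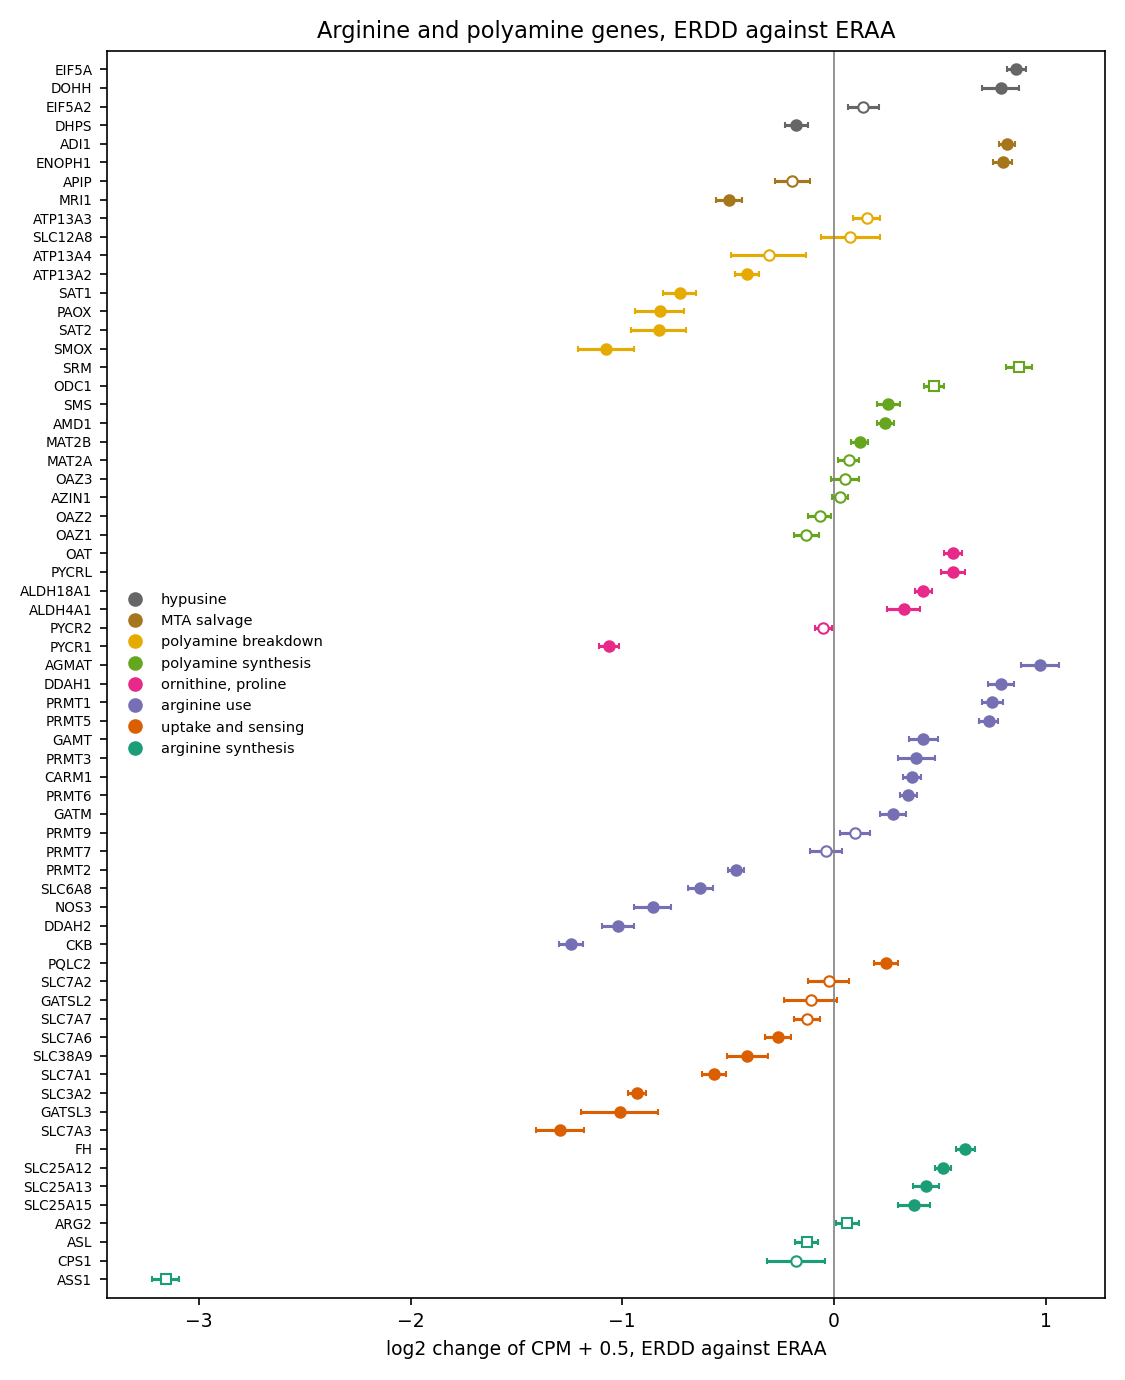
Change (log2 of CPM + 0.5, horizontal axis, linear; bars are the SE, n = 2 libraries per line) in ERDD against ERAA of the 61 other pathway genes tested, coloured by list and ordered by size within it, with ASS1, ASL, ARG2, ODC1 and SRM as open squares. Filled circles passed an adjusted p of 0.05 and open circles did not; ASS1, at -3.16, lies farthest from 0, while all 5 called genes of polyamine breakdown and transport lie below 0.

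The comparisons with ERPHF8 had fewer calls. In ERPHF8 against ERAA 38 of 61 pathway genes were called, 20 higher and 18 lower (62.3%, beside 53.8% of all genes, 29.7% higher and 24.1% lower), and in ERDD against ERPHF8 34, 20 higher and 14 lower (55.7%, beside 52.8%, 24.8% higher and 28.0% lower). PYCR1 fell by 0.72 ± 0.05 in ERPHF8 against ERAA (adjusted p = 2.7e-05), SAT1 by 0.72 ± 0.08 (adjusted p = 0.00020), and EIF5A rose by 0.45 ± 0.05 (adjusted p = 0.00016). In ERDD against ERPHF8, SLC7A1 fell by 0.57 ± 0.06 (adjusted p = 0.00020) and EIF5A rose by 0.41 ± 0.05 (adjusted p = 0.00030), while SAT1 was -0.01 ± 0.08 (adjusted p = 0.91). Without replicate 2 of ERDD the count in ERDD against ERPHF8 was 22.

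Transcription factors known from textbooks to act on ASS1 or ODC1 were read from a list of 14 (12 tested). In ERDD against ERAA 8 fell and 0 rose, 66.7% of the list beside 68.1% of all genes (34.8% higher and 33.3% lower). The count is a description, since the lists were chosen with earlier results of these data known. ATF4, the factor of the amino acid response, was 698 and 824 CPM in ERAA, 483 and 478 in ERPHF8 and 258 and 261 in ERDD, and was 181 to 232 in the 12 libraries of the first experiment. Its change was -1.54 ± 0.07 in ERDD against ERAA (adjusted p = 1.1e-06), and its order across the ER lines was that of ASS1. CEBPB, a C/EBP factor, fell by 1.44 ± 0.06 (adjusted p = 6.4e-07) and MXI1, an antagonist of MYC, by 1.03 ± 0.04 (adjusted p = 7.2e-07). MYC was 349 and 364 CPM in ERAA, 287 and 279.7 in ERPHF8 and 219.9 and 228 in ERDD. It fell by 0.67 ± 0.04 in ERDD against ERAA (adjusted p = 5.6e-06 by limma). Its order, like that of ATF4, was that of ASS1, and it was opposite to that of ODC1 and SRM. The share of all genes with this order was not counted, and the part of these factors in the levels was not tested. In ERPHF8 against ERAA 5 of the 12 fell and 1 rose (beside 53.8% of all genes, 29.7% higher and 24.1% lower). In ERDD against ERPHF8 8 fell (66.7%, beside 52.8%, 24.8% higher and 28.0% lower). In PHF8 against wt 0 of the 12 were called by limma (1 at an unadjusted p below 0.05, 0 by limma-voom), in F279S against wt 0 (0 and 0) and in PHF8 against F279S 0 (2 and 0). With the replicate block 4 of the 12 were called in PHF8 against wt (33.3%, beside 41.4% of all genes), 5 in PHF8 against F279S (41.7%, beside 41.1%) and 0 in F279S against wt (beside 2.18%). MYC, called in both of the former, was 0.18 ± 0.16 and 0.33 ± 0.16 without the block (adjusted p = 0.0026 and 6.1e-05 with it). Within libraries 1 and 2 it was 0.21 and 0.37, and within libraries 3 and 4 0.14 and 0.28.

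In PHF8 against wt, 9 of 60 pathway genes tested were called by limma, 5 higher and 4 lower, which is 15.0% beside 21.0% of all genes (12.7% higher and 8.28% lower). Their median change was 0.10 beside 0.01 for all genes. Those that rose were EIF5A2, a second form of eIF5A (0.48 ± 0.10, adjusted p = 0.0040), SMS (0.29 ± 0.07, adjusted p = 0.0081), DDAH1, which breaks down methylarginines (0.47 ± 0.12, adjusted p = 0.013), PRMT2 (0.42 ± 0.12, adjusted p = 0.028) and GATSL2 (0.57 ± 0.17, adjusted p = 0.032), an arginine sensor of the CASTOR family. Those that fell were NOS3, the endothelial nitric oxide synthase (-0.75 ± 0.16, adjusted p = 0.0054), SLC7A7, a cationic amino acid exchanger (-0.48 ± 0.12, adjusted p = 0.013), PQLC2, a lysosomal exporter of cationic amino acids (-0.26 ± 0.07, adjusted p = 0.018), and MRI1 (-0.24 ± 0.07, adjusted p = 0.035). All 9 had the same sign within libraries 1 and 2 and within libraries 3 and 4: SMS was 0.27 and 0.31, EIF5A2 0.31 and 0.65, DDAH1 0.24 and 0.71, PRMT2 0.60 and 0.24, and GATSL2 0.80 and 0.33. NOS3 was -0.67 and -0.83, SLC7A7 -0.27 and -0.69, PQLC2 -0.34 and -0.19, and MRI1 -0.16 and -0.32. The 9 were called from these same libraries in a fit without the library pair, which favours genes whose pairs agree. Their shared signs are therefore no separate check of the calls. With the replicate block 28 of 60 were called, 18 higher and 10 lower (46.7%, beside 41.4% of all genes). Without replicate 1 of PHF8 5 were called.

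In PHF8 against F279S, 10 of the 60 were called by limma, 6 higher and 4 lower (16.7%, beside 20.1% of all genes, 12.2% higher and 7.92% lower), and 26 with the replicate block (43.3%, beside 41.1%). EIF5A2 (0.47 ± 0.10, adjusted p = 0.0049), DDAH1 (0.51 ± 0.12, adjusted p = 0.0095) and OAT (0.38 ± 0.10, adjusted p = 0.017) were among the higher, with 0.46 and 0.48, 0.41 and 0.61, and 0.23 and 0.53 in the respective library pairs. PQLC2 (-0.36 ± 0.07, adjusted p = 0.0032), SAT2, a relative of SAT1 (-0.57 ± 0.16, adjusted p = 0.024), and NOS3 (-0.54 ± 0.16, adjusted p = 0.032) were among the lower, with -0.45 and -0.27, -0.62 and -0.53, and -0.35 and -0.73 in the pairs. The count ran from 4 to 7 when 1 library was left out, lowest without replicate 4 of PHF8. In F279S against wt 0 of 60 were called by limma (beside 0.0146% of all genes), with 0 at an unadjusted p below 0.05 and 0 by limma-voom; with the replicate block SLC6A8, the creatine transporter, named after its value was seen, was called lower (-1.08 ± 0.19, adjusted p = 0.023; -1.58 and -0.58 in the library pairs). PHF8 against wt and PHF8 against F279S share the PHF8 libraries.

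The change of PHF8 against wt itself differed between the library pairs for many genes, those of the pathway among them. A limma fit with the line and the library pair, added after the data were seen, called this difference for 34 of 60 pathway genes, 26 higher in libraries 3 and 4 and 8 lower (median 0.18, beside -0.02 for all genes), where 30.5% of all genes were called. The higher and lower shares of all genes were not counted. The lists were chosen with earlier results known, so these counts are a description. For the 5 genes themselves, described with no test, the differences were 1.13 ± 0.09 for ODC1, 0.57 ± 0.10 for SRM, 0.47 ± 0.10 for ARG2, 0.03 ± 0.10 for ASL and -0.08 ± 0.09 for ASS1. Among the other polyamine and ornithine genes, the difference was 0.51 ± 0.10 for OAT (adjusted p = 0.0029 by limma), 0.30 ± 0.07 for AMD1 (adjusted p = 0.0066) and 0.04 ± 0.08 for SMS (adjusted p = 0.75). It was 0.53 ± 0.08 for SLC7A1 (adjusted p = 0.00084), 0.52 ± 0.08 for SLC3A2 (adjusted p = 0.00077) and -0.07 ± 0.06 for MYC (adjusted p = 0.40). CD14, 1 of the 12 monocytic markers, was named after its value was seen. It differed by -1.95 ± 0.15 (adjusted p = 1.2e-05 by limma). Its means were 2.29 CPM in libraries 1 and 2 and 8.22 in libraries 3 and 4 of wt, and 5.99 and 4.77 in PHF8. The differences of the other monocytic markers are not given here, so CD14 does not stand for the set. The sum of the 12 monocytic markers ran from 2137 to 2770.4 CPM in wt, 2143 to 2448 in F279S and 1620.3 to 1961 in PHF8. Its part in these values was not tested.

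**Figure D5:**
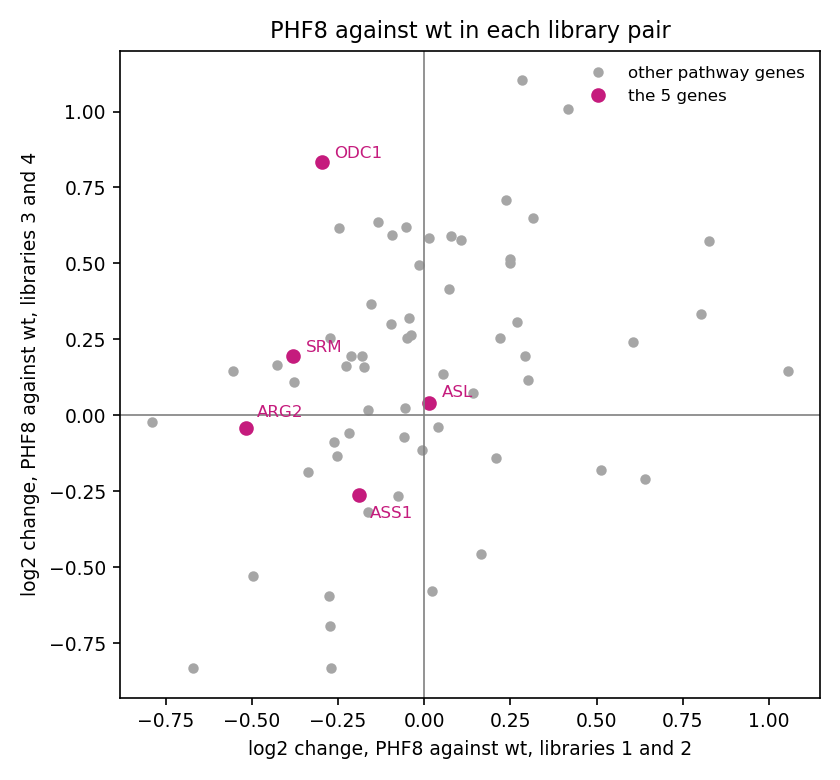
Change of PHF8 against wt (log2 of CPM + 0.5, both axes linear) in libraries 1 and 2 (horizontal) and in libraries 3 and 4 (vertical) for the 5 genes (labelled) and the other tested pathway genes (grey). ODC1 (-0.30 and 0.83) and SRM (-0.38 and 0.19) lie left of and above 0, ARG2 (-0.52 and -0.04) lies left, and ASS1 (-0.19 and -0.26) is below 0 in both.

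Across libraries the 5 genes did not form 1 pattern. Over the 18 libraries, Pearson's r of log2 values was 0.76 for ODC1 with SRM and 0.73 for ARG2 with SRM, against -0.46 for ASS1 with SRM and -0.33 for ASS1 with ASL. The values for ASS1 had opposite signs in the 2 experiments. ASS1 with SRM was 0.86 over the 12 libraries of the first experiment and -0.97 over the 6 ER libraries. ASS1 with ASL was -0.87 and 0.46 in the same sets. In these sets ODC1 with SRM was 0.86 and 0.99, and ARG2 with SRM 0.78 and 0.40. Points that share a line or a library pair are not independent, so these values have no p. Among 7360 genes that overlap no other and reach 5 CPM in some group, those most like ASS1 were PABPC1 (r = 0.96), CHP1 (0.95), SERPINF1 (0.95), TRIB3 (0.94) and PIGT (0.94). TRIB3 was 161 and 168 CPM in ERAA, 95.8 and 98.3 in ERPHF8 and 45.8 and 44.4 in ERDD. SERPINF1 averaged 311 CPM in ERAA, 162 in ERPHF8 and 127 in ERDD. Those most like ODC1 were DCUN1D5 (0.98), MRPL15 (0.96) and METAP1 (0.95), and those most like SRM were STOML2 (0.99), TIMM50 (0.99) and FLAD1 (0.98). For ARG2 they were TBCE (0.97), FTSJ1 (0.97) and C20orf27 (0.97), and for ASL HDAC11 (0.91), TMEM145 (0.91) and JUND (0.90).

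Besides ASL and ARG2, some of the genes named here overlap another listed gene and can hold its reads: NOS3, MRI1, SAT2, PYCR1, EIF5A, PRMT1, AMD1, OAZ1, SLC25A12, SLC6A8, DDAH2 and MTAP. In bulk RNA, fewer cells of a kind and less RNA per cell cannot be told apart.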

How the data were processed

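Poly(A) RNA was sequenced in 18 libraries, grouped by title and genotype label. The authors deposited RPKM values per gene, on hg38. The tools named in the submitters' processing notes are STAR 2.7.0c, SAMtools 1.9 and DESeq2; how genes were counted, and with which strand mode, is not given in the sources used here. These RPKM refer to the full gene span, introns included. Multiplied by the span in kb they gave CPM, and every value was a whole number of reads within 0.01 reads, so depth was known: 18.2 to 24.3 M reads in libraries 1 and 2, 20.8 to 51.5 M in libraries 3 and 4 and 40.6 to 41.3 M in the ER lines. Reads in genes came to 100.1 to 104.6% of these totals, since overlapping genes share reads.

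Genes that reached 1 CPM in 4 or more libraries (first experiment) or 2 or more (ER lines) were fitted on log2(CPM + 0.5) with limma (version 3.58.1, R 4.3.3, intensity trend), with the line as the only term and Benjamini-Hochberg adjustment over all genes fitted. The fit was also run on simulated reads. These held no difference between library pairs, so that run does not bear on the split within the first experiment. Means have the SD and changes the SE. Levels per kb used the merged exons of GENCODE release 29.

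In the first experiment, same-numbered libraries deviated together from their group means in 12 of 12 pairings (r 0.48 to 0.91). Libraries of the other number within the same library pair did so too (0.23 to 0.82). The group means span both library pairs, so the split between the pairs alone gives positive values. Within libraries 1 and 2 the number made little difference: F279S replicate 1 had r 0.81 with wt replicate 1 and 0.82 with wt replicate 2. Within libraries 3 and 4 same-numbered values were mostly higher, such as 0.91 for F279S replicate 3 with wt replicate 3, against 0.75 with wt replicate 4.

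The members and lists were chosen with earlier results of these data known. Named genes were the 5 members, 12 fixed pathway genes, up to 4 genes per list and comparison by smallest p, and the genes most like a member (5 for ASS1, 3 for each other); CD14 and SLC6A8 were chosen after their values were seen. Alternatives were TMM scaling, other pseudocounts, no filter, a replicate block, the library pair as a factor, each pair alone and each library left out. Limma-voom on recovered reads and the line by library pair fit were added after seeing the data.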

Additional observations from a re-analysis of the deposited data

Results flagged for a closer look

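ODC1 in the PHF8 line was 311 CPM in replicate 4 against 279.4 to 284 in the others, a gap of 0.857 of the whole range. That range, 279.4 to 311 CPM, was itself narrow. Chance alone flags about 1 in 20 groups of this size, and how many groups were screened is not given here. The flag is therefore a description and no test, since ODC1 was selected on these levels. The change of ODC1 in PHF8 against wt had opposite signs in the library pairs, with every PHF8 library below wt in libraries 1 and 2 and above it in libraries 3 and 4, a difference of 1.13 on the log2 scale. Against F279S the difference was 0.94, again with opposite signs. SRM showed the same pattern, with a difference of 0.57 in PHF8 against wt and 0.42 in PHF8 against F279S. For ODC1 and SRM these differences are a description: no test of them is used, since the genes were selected on these levels.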

How the results depend on the processing

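ASS1 kept its direction in all 3 comparisons of the ER lines, in PHF8 against wt and in PHF8 against F279S under every alternative run. With 1 library left out, ASS1 ran from -3.24 to -3.07 in ERDD against ERAA, from -1.98 to -1.82 in ERPHF8 against ERAA, from -1.30 to -1.21 in ERDD against ERPHF8, from -0.32 to -0.14 in PHF8 against wt, from -0.44 to -0.19 in PHF8 against F279S and from -0.04 to 0.21 in F279S against wt. For PHF8 against wt the count of pathway genes called was 28 with the replicate block, 31 with the library pair as a factor, 36 within libraries 1 and 2, 35 within libraries 3 and 4, and 5 to 10 with 1 library left out. The shares of all genes called under the first 4 of these fits were 41.4%, 40.9%, 51.4% and 42.1%, so calls rose across all genes and not in the pathway alone. For PHF8 against F279S these counts were 26, 27, 33 and 28 (all genes 41.1%, 40.7%, 53.8% and 35.2%), and 4 to 7 with 1 library left out. For F279S against wt they were 1, 2, 7 and 1 (all genes 2.18%, 2.18%, 14.2% and 0.0877%), and 0 with 1 library left out. The 3 counts of the ER lines ran from 41 to 49, 29 to 42 and 22 to 25 with 1 library left out, in the order ERDD against ERAA, ERPHF8 against ERAA and ERDD against ERPHF8. The ER libraries share only a number, so their block is no pairing; with it the counts were 44, 35 and 33, and 6 of 12 transcription factors in ERDD against ERAA in place of 8.

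The sign turned for ODC1 in libraries 1 and 2 alone (-0.30 in PHF8 against wt, -0.22 in PHF8 against F279S), for SRM in libraries 3 and 4 alone (0.19 in PHF8 against wt), for SLC25A15 in libraries 1 and 2 alone (-0.25) and SLC7A1 in libraries 3 and 4 alone (0.25), both in PHF8 against wt, and for SLC7A1 in ERPHF8 against ERAA without replicate 2 of ERAA (-0.081, against 0.094 without replicate 1). The sign turned as well for SRM in PHF8 against F279S, at 0.17 ± 0.06 in libraries 3 and 4 alone. In F279S against wt, libraries 3 and 4 alone gave -0.03 for ASS1, 0.03 for SRM and 0.04 for ARG2. Libraries 1 and 2 alone gave -0.08 for ODC1 in that comparison. Pooled over the library pairs, each of these changes of ASS1, ARG2, ODC1 and SRM was smaller than its SE. With 1 library left out, SRM crossed 0 in PHF8 against wt (0.07 without replicate 1 or 2 of wt) and in PHF8 against F279S, ASL in PHF8 against wt, and ASS1, ARG2, ODC1 and SRM in F279S against wt. The cause was not tested. A count test planned with edgeR was not run, because the deposited unit is RPKM. With 3 residual degrees of freedom in the ER lines and 2 libraries per line, precision there rests on the variance shared across genes.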
